A study of Drosophila melanogaster with 3 samples.

Results

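The weak distal peaks of CG17359 are the places, away from gene starts, where chromatin immunoprecipitation sequencing (ChIP-seq) found an enrichment too small for the authors' final list. The members were taken from the authors' list of 30000 peaks called on all replicates together, here named the pooled list. A peak was a member if its summit, the base of highest enrichment, lay more than 1000 bp from every summit of the thresholded list and more than 1000 bp from every annotated transcription start site, and if that summit fell outside coding exons and 3' UTRs. The thresholded list is the authors' final set of 7287 peaks, which its name gives as the optimal set from an irreproducible discovery rate (IDR) comparison. There were 10986 members, which is 36.6% of the pooled list and 48.4% of the 22713 pooled peaks that are not in the thresholded list. Most of the members (68.4%) lay in introns, against 57.3% of the bases where the rule allowed a summit. Of all members 42.0% were found in every replicate, against 47.2% of all pooled peaks outside the thresholded list.

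All samples came from whole Drosophila melanogaster embryos aged 0 to 14 h of a transgenic line that stably expresses CG17359 with green fluorescent protein (GFP) at its C terminus, and an antibody against GFP recovered the DNA. The 3 biological replicates form 1 group. They share the transgene, the stage and 1 control experiment, and no untagged strain or other condition was analysed here. The embryos were not sorted by tissue or age, so a weak peak from all cells and a strong peak from few cells cannot be told apart. Library depth is unknown, since a peak list carries no read counts.

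CG17359 has been counted among the ZAD zinc finger proteins, a large insect family whose members carry a zinc-finger-associated domain at one end and DNA-binding zinc fingers at the other. Most of its members have no described binding sites. In flies, sequence that controls genes from a distance, such as enhancers and insulators, often lies in introns, mostly the long introns near the 5' end of developmental genes. A ChIP-seq peak list also holds weak enrichments that come from open chromatin, from neighbouring strong sites or from reads that fall by chance, and a peak list does not separate these sources.

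Members were chosen on signal value and place, so the values that chose them are given here as a description only. From the pooled list, 7287 peaks were in the thresholded list, 4200 of the rest lay within 1000 bp of a thresholded summit, then 6554 lay within 1000 bp of a start site, 483 fell in coding exons and 490 in 3' UTRs. Just inside the distance limits, 286 members lay 1001 to 1100 bp from a thresholded summit and 287 lay that far from a start site. Just outside, 309 peaks lay 901 to 1000 bp from a thresholded summit and 298 from a start site. The signal value, the authors' own measure of enrichment in a peak, ran from 51.5 to 211 among members with a median of 80.8. Thresholded peaks had a median of 389, which was 4.81 times as high, and the weakest of them matched the strongest member to 3 digits (211). The deposited -log10 q of members ran from 0.311 to 3.72 with a median of 0.743. In the pooled list 99.7% of members had the same width of 390 bp, against 37.4% of thresholded peaks.

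The strongest members are shown first, because they lie nearest to the threshold. Below are 30 bases of the Release 6 reference sequence around the summit, on the plus strand, for 9 of the 10 members with the highest signal value, each with a signal value between 210.2 and 211 and each found in all 3 replicates. Capitals mark a match to 1 of the 24 sequence elements searched here, and lower case marks all other bases.
chr3R:23028692-23028721, 1994 bp upstream of lmd: agctgcacacagaagatttaaggcagaaca
chr3R:29584490-29584519, 3599 bp downstream of the start of CG7567: tgatcgtatgatcagagattgaatcccatt
chr3L:15775781-15775810, intergenic: atttaaaaatattaaatgtttgaatatata
chr3L:13237315-13237344, intron of caps: tcttaaatcactataataaaatttgcaaat
chrX:11544795-11544824, intron of Drak: cattatttcagtgacaTTTTTTTTTTTTTT
chr3R:29066478-29066507, intron of Bicra: tatacaaagacgttttggcagtgtttacat
chr3L:3851995-3852024, intron of Awh: ctgaaatggtgcctcaagttaaggccttaa
chr2L:484371-484400, intron of ush: tccccttgctccccacgagtaccgcgtatg
chr3R:24467406-24467435, 1976 bp upstream of CG31128: gggttaaggCCATAAAttgttccaaagtat
The capitals in the Drak sequence are a run of A read on the other strand, and those near CG31128 are the letters TTTATGG, read on the other strand, to which the homeodomain protein Caudal is known to bind. The other 7 sequences hold no element within these 30 bases. The intergenic one, whose nearest start site is that of lncRNA:CR46197, and the one in caps are rich in A and T, with 29.5% and 26.0% GC over 200 bp, and the one in ush has 48.5%.

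The strongest members had no common order in the replicates. The member upstream of lmd, which encodes a zinc finger protein of fusion-competent myoblasts, ranked 7045, 5992 and 8508 in the lists of replicates 1, 2 and 3. The intronic member of caps, a leucine-rich repeat adhesion gene, ranked 6260, 9373 and 5880, and that of Drak, a kinase gene, ranked 9505, 12852 and 5212. The member in ush, which encodes a cofactor of GATA factors, ranked 5919, 9191 and 8457, and that in Awh, a LIM homeodomain gene, 7744, 8814 and 8175. In replicate 2 the member near CG31128 ranked 17768, against 6272 and 6907 in the other replicates, and the strong member in Hr3, a nuclear receptor gene, ranked 15595 against 8624 and 5800. Replicate 2 placed 7 of the 10 strongest members lower than the other replicates did, replicate 1 placed 2 lowest and replicate 3 placed 1. At the other end, the weakest member (3L, summit at 2544369, signal value 51.5, intron of Spn) ranked 26894 in replicate 1 and 28793 in replicate 2 and was missing from replicate 3.

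A member counts as present in a replicate if it overlaps a peak of that replicate's list by at least 1 bp. By this measure 4613 members (42.0%, exact 95% binomial interval 41.1 to 42.9) were present in all 3 replicates, 3818 (34.8%) in 2 of them, 2192 (19.95%) in 1 and 363 (3.30%) in none. The same share was 59.5% over all pooled peaks, 47.2% over all pooled peaks outside the thresholded list and 52.1% over those of them that are not members. Thresholded peaks that lie equally far from start sites and outside the same exons, 3387 in number, were present in all 3 replicates in 98.1% of cases. Intervals cover the counting of peaks only. The pooled list was made from the reads of the same replicates and all lists stop at 30000 peaks, so presence is partly built in, and no share here is a test.

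Replicate 3 held more of the members than the other replicates, as it did of all pooled peaks. Replicate 1 held 7554 members (68.8%), replicate 2 held 7595 (69.1%) and replicate 3 held 8518 (77.5%), with a mean of 71.8% ± 4.96 (SD, n = 3). Over all pooled peaks the shares were 78.7%, 79.5% and 83.8%, and over those outside the thresholded list 72.2%, 73.2% and 78.8%. Members found in 1 replicate only numbered 620 in replicate 1, 604 in replicate 2 and 968 in replicate 3. For scale, a stretch of 390 bp centred at an eligible base, meaning any base where a summit could have met the rule, would overlap a peak of replicates 1, 2 and 3 at 9.41%, 8.98% and 9.72% of bases, and of all 3 at 3.50%. Each of these shares averages over all eligible bases. Many members lay near thresholded summits, where replicate peaks were denser. Under the rule their mean was 488 per Mb at 1 to 2 kb from such a summit, against 10.5 beyond 50 kb. The share of overlapping bases at such places was not computed and would be higher. Summits matched less closely than peaks. The median distance between the summit of a member and that of the overlapping peak was 47, 51 and 28 bp in replicates 1, 2 and 3, against 13, 17 and 7 bp for thresholded distal peaks. When presence required the member's summit to lie inside the peak, 29.2% of members were in all 3 replicates, and 19.9% when the replicate's own summit had to lie within 100 bp.

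Members with a higher signal value were present more often, as the plot of presence shows. They were divided by signal value into 5 groups of nearly equal size. In the weakest group, with a median signal value of 56.0, 12.7% were in all 3 replicates and 11.3% in none. The next groups had 17.4%, 31.7% and 60.8% in all 3. In the strongest group, with a median of 156, the share was 87.4% (85.9 to 88.8) and no member was missing from every replicate. Each single replicate moved the same way, from 46.4%, 45.04% and 53.7% in the weakest group to 93.9%, 95.2% and 97.8% in the strongest. Signal values below the threshold cover members that recur in every list as well as members that appear in few.

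**Figure D1:**
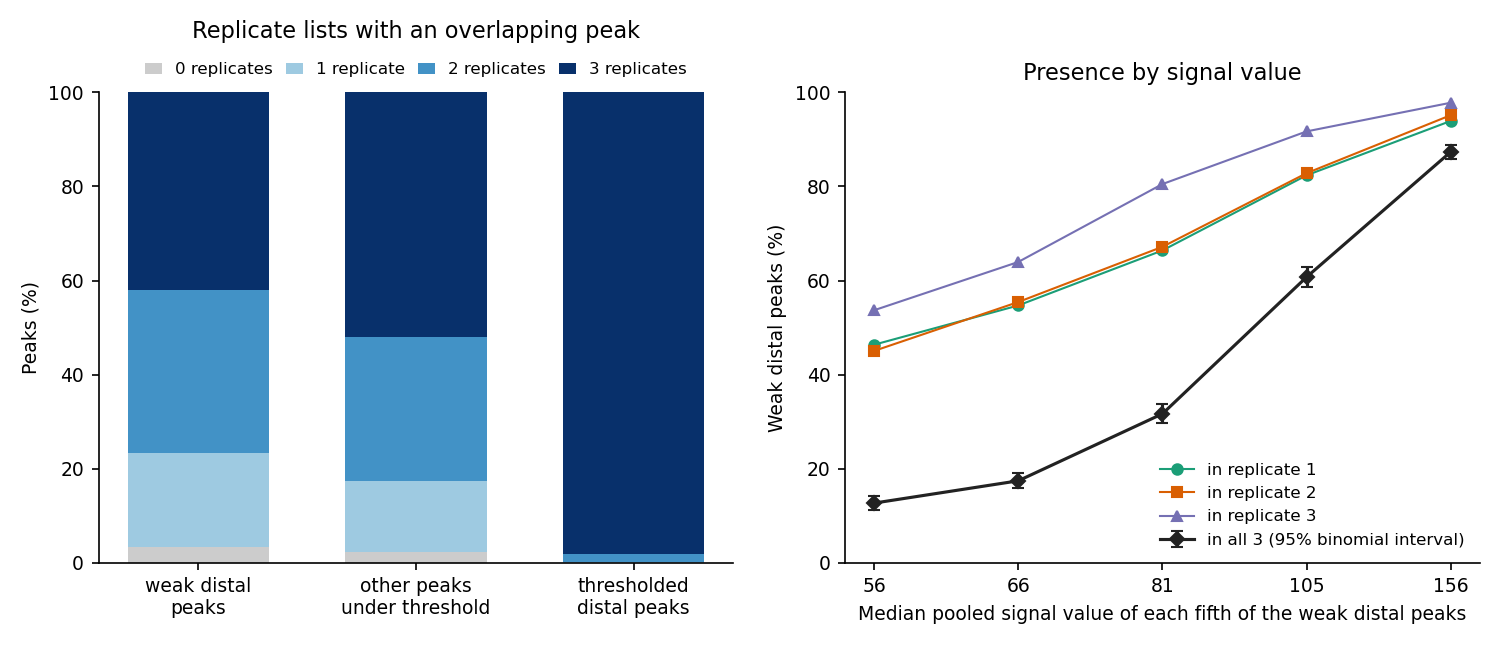
Left, the share of weak distal peaks, of the other pooled peaks under the threshold and of thresholded distal peaks that overlapped a peak of 0, 1, 2 or 3 replicates, in percent. Right, the share of weak distal peaks present in each replicate and in all 3, for 5 groups ordered by signal value, with 95% binomial intervals on the share in all 3; that share climbs from 12.7% to 87.4%.

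Ranks inside the replicates are given as a description only. All members ranked below the 7287 thresholded peaks in the pooled list, made from the same reads, so low ranks were partly built in. The median rank of members was 16489.5 in replicate 1, 16603 in replicate 2 and 16362 in replicate 3. Of these members, 328, 317 and 290 ranked among the 7287 strongest peaks there. Members present in that replicate only had median ranks of 20161.5, 20204 and 20572.5, and those present in all 3 had 14553, 14721 and 13740.

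The same rule was applied to each replicate's own list, to see how far the pooled members stand for a single replicate. It left 10453, 10263 and 10721 peaks, 10479 ± 230 (SD, n = 3). Of such peaks of 1 replicate, 54.2% to 60.7% overlapped a peak anywhere in the list of another replicate, with a mean of 58.0% over the 6 ordered pairs. A mean of 42.2% ± 1.09 overlapped peaks of both other replicates and 26.3% ± 2.17 (SD, n = 3) overlapped neither. All these lists used the same control, and its part in the overlap was not tested.

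Introns carried most members. Eligible bases came to 77.2 Mb, 57.6% of the 6 chromosome arms, and held 142 members per Mb. Introns held 7513 members, 68.4% (67.5 to 69.3) against 57.3% of eligible bases. Intergenic sequence held 3286 members, 29.9% (29.1 to 30.8) against 41.5% of eligible bases. The remainder were 115 members in other exons, such as those of noncoding RNAs, and 72 in 5' UTRs. The intron share was 68.6%, 68.7% and 68.4% in the replicate lists under the same rule, so it differed between lists by less than its distance from the share of bases. Introns had 170 members per Mb and intergenic sequence had 103, a ratio of 1.66, and the replicates gave 1.67 ± 0.0101 (SD, n = 3).

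Part of this ratio moved with how much of the sequence occurs once in the genome. Eligible bases were cut into tiles of 200 bp, and a tile was called unique if each 31-mer in it occurs once in the reference. Unique tiles made up 72.5% of eligible tiles, while 97.6% of members had a unique window of that size around the summit. Tiles with less than 50% unique 31-mers made up 20.4% of eligible tiles and held 7 members (0.0637%). Annotated transposable elements covered 9.71% of tiles and held the summits of 55 members (0.501%). Within unique tiles introns had 209 members per Mb and intergenic sequence had 160, a ratio of 1.31. In the replicate lists these densities were 200 ± 4.42 and 153 ± 4.38 per Mb (SD, n = 3).

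Members were densest near thresholded peaks and sparsest far from them. The median member lay 4079 bp from the nearest thresholded summit, against 21439 bp for the median eligible base. Members per Mb went from 525 at 1 to 2 kb, just outside the rule's limit, to 369 at 2 to 5 kb, 220 at 5 to 10 kb, 114 at 10 to 20 kb, 53.1 at 20 to 50 kb and 9.43 beyond 50 kb. The replicate lists gave 488 ± 15.3 per Mb at 1 to 2 kb and 10.5 ± 0.765 beyond 50 kb (SD, n = 3), so every replicate had the same order. Restricting the count to unique tiles left 537 per Mb in the nearest group and 25.8 in the farthest. Members close to a thresholded summit were also more often present in all 3 replicates. The share was 49.5% (47.6 to 51.5) at 1 to 2 kb and 23.4% (18.1 to 29.4) beyond 50 kb. Their median signal value was 85.7 at 1 to 2 kb and 72.9 beyond 50 kb. An overlap of 1 bp is also met more easily where replicate peaks are denser. The parts of signal value and density in this contrast were not tested.

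Density also differed with distance from start sites. Members lay at a median of 4227.5 bp from the nearest start site, against 6785 bp for eligible bases, and the farthest lay 59939 bp away. Density went from 224 members per Mb at 1 to 2 kb to 185, 155, 126 and 68.2 in the next groups and 3.48 beyond 50 kb. In unique tiles it went from 240 to 141 at 20 to 50 kb and 42.1 beyond. Only 28 of the members lay beyond 50 kb. The plot of density by distance sets both gradients side by side.

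**Figure D2:**
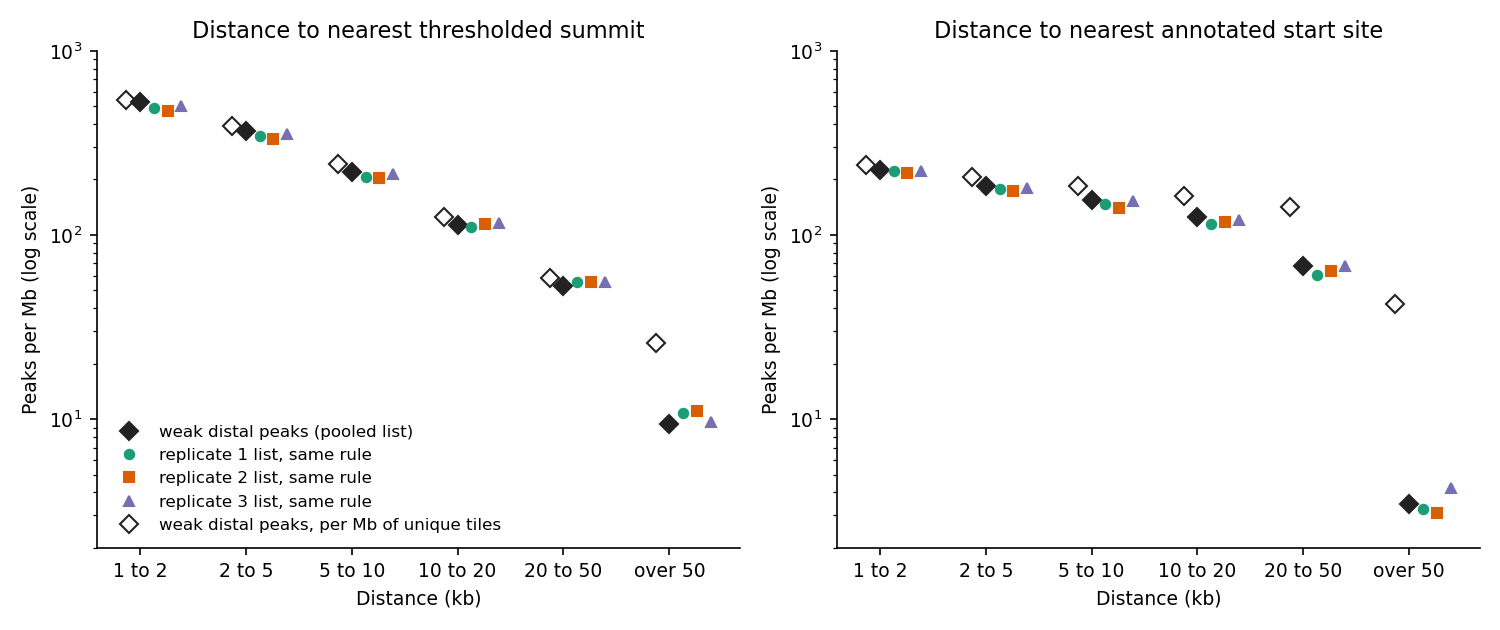
Peaks per Mb of eligible sequence (log axis) by distance in kb from the nearest thresholded summit (left) and from the nearest start site (right). Filled diamonds are the weak distal peaks of the pooled list, coloured points the 3 replicate lists under the same rule, and open diamonds the pooled members per Mb of unique tiles; the step from 525 to 9.43 per Mb on the left is wider than the spread between replicates.

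Arms differed in their density of members. X held 2342 members at 178 per Mb, 2L had 2059 at 158, 3L had 2623 at 156, 3R had 2284 at 122, 2R had 1617 at 110 and chromosome 4 had 61 at 81.7. The replicate lists put X at 150, 152 and 163 per Mb, 2L at 153, 150 and 154, and 3L at 148, 142 and 154, so these 3 arms overlapped in the replicates. They put 3R at 123, 122 and 121 and 2R at 109, 107 and 112, below the other 3 in every replicate. The ratio of X to the other arms was 1.31 for members and 1.13, 1.18 and 1.22 for replicates 1, 2 and 3, a mean of 1.18 ± 0.0435 (SD, n = 3). In unique tiles it was 1.17 for members and 1.01, 1.05 and 1.10 for the replicates. Members found in no replicate had a ratio of 2.05, those in 2 or 3 replicates 1.25 and those in all 3 1.27. Introns were denser than intergenic sequence on X (217 against 106 members per Mb) as on 2L (183 against 127), 2R (144 against 69.7), 3L (184 against 124) and 3R (141 against 86.2), while chromosome 4 had 61.1 in introns and 132 between genes.

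The order of the arms changed in unique tiles. There 3L had 225 members per Mb, X 218, 2L 188, 2R 175, 3R 163 and chromosome 4 100.5. Tiles with less than 50% unique 31-mers made up 27.9% of the eligible tiles on 2R, 23.6% on chromosome 4, 23.3% on 3L, 19.8% on 3R, 16.6% on X and 13.0% on 2L. Chromosome 4, a small and largely heterochromatic arm, was the only one where every replicate list had more peaks per Mb than the pooled members, with 119, 92.4 and 114 against 81.7. Of its 61 members 27.9% (17.1 to 40.8) were in all 3 replicates, against 39.1% to 44.5% on the other arms.

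**Figure D3:**
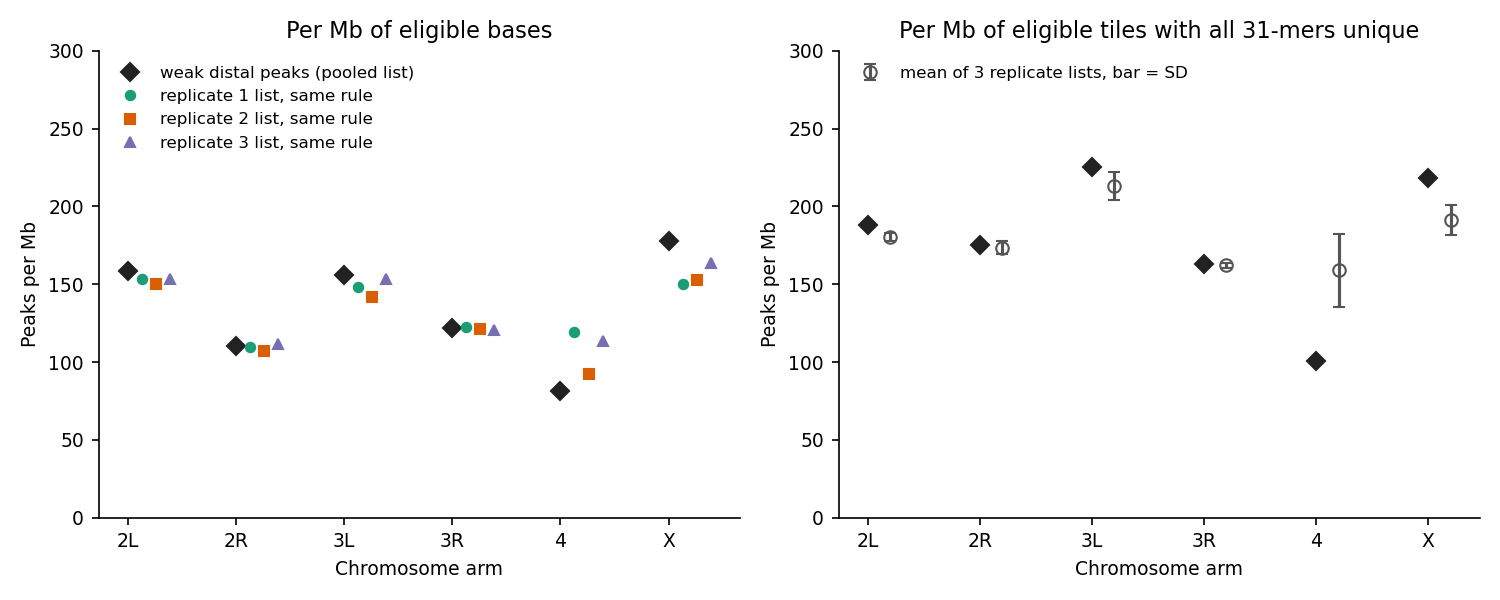
Peaks per Mb on each chromosome arm, per Mb of eligible bases (left) and per Mb of unique tiles (right). Diamonds are the weak distal peaks of the pooled list, coloured points the 3 replicate lists under the same rule, and open circles with bars the mean and SD of those lists; 2R and 3R sit below 2L, 3L and X on the left, while 2R rises to 175 per Mb on the right.

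Many members lay close to another member. The median distance from a member to the nearest other one was 1005 bp, and 5480 members (49.9%) had another within 1 kb. Joined at that distance they formed 7706 groups, of which 5506 were a single member and 673 held 3 or more. No share given by the local density of members was computed. Whether members group beyond that density was therefore not tested. The 3 longest groups, named after their size was seen, held 9 members each. One lay on 2R from 16833049 to 16836603 over lncRNA:CR43650 with 5 members in all 3 replicates, 1061 bp from a thresholded summit. Another lay on X from 8883664 to 8887585 in Moe, which encodes the membrane to actin linker Moesin, with 7 in all 3 replicates. The last lay between genes on 3L from 11385282 to 11390387, with 5 in all 3 and the nearest thresholded summit 4963 bp away.

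Over stretches of 100 kb with at least 20 kb eligible the median was 6 members and 4 thresholded summits, and 280 of 1295 such stretches held no member. The stretches without members had a median of 50.01% of tiles with less than 50% unique 31-mers. The fullest stretch, also named after its count was seen, held 63 members and lay on 2L from 14400001 to 14500000 around elB and noc, a pair of neighbouring zinc finger genes of leg and tracheal development. Of these 63, 37 were in all 3 replicates, and the replicate lists under the same rule had 56, 53 and 62 peaks there beside 11 thresholded summits. A stretch on 3L from 15700001 to 15800000 around comm, a regulator of axon crossing at the midline, held 54, with 55, 44 and 50 in the replicate lists. One on 3R from 5000001 to 5100000 with corto, a chromatin factor gene, and plh held 53, with 49, 51 and 57. Lists differed more in others of the 10 fullest stretches, such as 1 on 3L from 10300001 to 10400000 with 49 members and 34, 39 and 45 replicate peaks.

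A host is a gene whose intron or noncoding exon holds a member summit. There were 7700 members (70.1%) in 1704 host genes, 1590 of them protein coding and 112 noncoding RNA genes, and 547 members lay in more than 1 gene. The replicate lists under the same rule had 1803, 1842 and 1742 hosts. Among all 3134 genes with at least 1 kb of eligible sequence, 1564 (49.9%) held a member. Counts per host varied, since 566 hosts held 1 each while the 100 hosts with the most held 2524, which is 23.0% of all members. These 100 hosts were chosen on their counts, and their share of eligible bases was not computed. A gene with more eligible sequence was more often a host, with 36.2% of genes with 1 to 5 kb, 59.1% with 5 to 20 kb, 66.4% with 20 to 50 kb and 74.9% with over 50 kb. Density went the other way, from 279 members per Mb in the shortest group to 246, 173 and 115. Members were paired with each protein-coding host that holds them, which gave 7779 pairs and counts a member in overlapping genes once for each gene. In 2717 pairs (34.9%) the member lay upstream of the host's coding span, against 28.6% of eligible bases there. Within the coding span the share was 63.2% of pairs against 69.4% of bases.

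The gene with the most members was kirre on X (2740384 to 3134532), which encodes an immunoglobulin adhesion protein of muscle founder cells. It held 90 members, of which 31 were in all 3 replicates, and 75, 71 and 83 peaks of replicates 1, 2 and 3 under the same rule. All 90 lay upstream of its coding span, and the gene also held 35 thresholded summits. The noncoding RNA gene lncRNA:CR44357 on X followed with 66 members, 33 of them in all 3 replicates, and 54, 52 and 55 replicate peaks. Both genes are long, with 268380 eligible bases in kirre and 161393 in lncRNA:CR44357. Other genes lie within them, such as rst (13 members) in kirre and CG1677 (31) in lncRNA:CR44357. A member counts for each gene that holds it.

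On 3R, the zinc finger gene Glut4EF and the overlapping CG46467 held the same 57 members, 32 in all 3 replicates, with 45, 48 and 53 replicate peaks. The Wnt receptor gene fz2 on 3L (19140975 to 19235373) also held 57, every one of them upstream of its coding span and 28 in all 3, with 44, 42 and 54 replicate peaks and 12 thresholded summits. Its relative fz, the Frizzled receptor gene of planar polarity, held 42, every one within its coding span, with 27, 33 and 46 replicate peaks. The homeodomain gene hth on 3R held 49 members, 25 in all 3, and 43, 43 and 61 replicate peaks. SKIP held 46, lncRNA:CR32773 held 42 and kek5, a leucine-rich repeat receptor gene, held 40. The gene lncRNA:CR44999 also held 40, of which 25 were in all 3 replicates, and was placed after kek5 by symbol. Over the 10 genes up to kek5 the part present in all 3 replicates ran from 9 of 42 in lncRNA:CR32773 to 32 of 57 in Glut4EF.

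Other genes were denser for their length. Among hosts with at least 10 members the highest density was in Usp10, a ubiquitin protease gene on 3L, with 1743 members per Mb (10 members in 5736 eligible bases, and 8, 6 and 9 replicate peaks). Moe had 1573 per Mb (13 members, with 10, 6 and 10 replicate peaks), Myo31DF, a myosin gene of left-right asymmetry, 1404 (12 members, with 10, 7 and 11), tara 1329 (20 members, with 22, 15 and 18) and Pka-C1, the catalytic subunit of protein kinase A, 1239 (12 members, with 7, 8 and 12). Replicate 2 had the fewest peaks in 4 of these 5 genes. At the sparse end of the hosts with at least 10 members, named after their values were seen, bru3 had 11 members at 42.7 per Mb. This RNA-binding protein gene, with 257673 eligible bases, had no thresholded summit and 13, 11 and 13 replicate peaks. The N-cadherin gene CadN had 99.3 per Mb, the furin protease gene Fur1 111, the Hox gene Antp 122 and the splicing regulator gene mbl 127. Each of these genes has over 50 kb eligible, and all genes of that length had 115 per Mb. Some hosts with fewer members were sparser, such as mamo with 1 member at 9.46 per Mb. CG17359 itself has no eligible base, so it could hold no member.

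Of 6 gene lists, read against 49.9% of all genes with 1 kb eligible and 175 members per Mb over those genes, the signalling list had the highest density and the ion channel list the lowest. The lists were chosen with earlier results of these data known, and no test was made of them. Genes in most lists also had more eligible sequence, with a median of 5.25 kb over all these genes. The median was 32.9 kb for axon guidance, 29.975 kb for ion channel, 26.3 kb for transcription factor and 16.1 kb for signalling genes. Of all genes with 20 to 50 kb eligible, 66.4% held a member, at 173 members per Mb. With 5 to 20 kb the values were 59.1% and 246 per Mb. The shares of the lists were not adjusted for length. Signalling genes held a member in 26 of 28 cases, at 530 members per Mb, with 489, 432 and 518 per Mb in the replicate lists. Their fullest members were fz2, fz, bun (37 members), a TSC22 family gene, and mam (27), the Notch coactivator. Named after their values were seen, the insulin receptor gene InR held 16, the fibroblast growth factor gene bnl 14, and dpp, a growth factor gene of the BMP family, 2. The thresholded list was also dense in signalling genes, with 129 summits per Mb of gene against 50.9 over all genes. The insulator and chromatin list was alike, with 423 members per Mb of eligible sequence and 128 thresholded summits per Mb of gene. Weak and strong peaks were thus both high in these lists.

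Axon guidance and cell adhesion genes held a member in 32 of 39 cases, at 221 per Mb, and 33.0% of these members were in all 3 replicates, against 42.6% over all genes. After kirre, the fullest were the teneurin gene Ten-a (32 members), the adhesion gene ed (30) and the semaphorin gene Sema1a (25). The list holds both kirre and rst, which lies within it, so members in rst count for each. CadN2, a second N-cadherin gene, had 74.5 kb eligible and no member, and the replicate lists under the same rule had 0 peaks each there. Developmental transcription factor genes held one in 34 of 53 cases at 181 per Mb, close to the value of all genes. After hth came luna (31), Eip75B (27), a nuclear receptor gene of the ecdysone response, and psq (21). The Hox genes Antp, Ubx, abd-A, lab and Scr held 10, 3, 2, 2 and 1, and Abd-B, Dfd and pb held none. A neural homeodomain gene with 41.7 kb eligible, pros, held none and had no peak under the same rule in any replicate list.

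Ion channel and synapse genes held a member in 14 of 35 cases, at 56.8 per Mb, with 44.6, 50.3 and 46.2 in the replicate lists. The cAMP phosphodiesterase gene dnc held 34 of their 70 members, the potassium channel gene Sh 8, the adenylyl cyclase gene rut 5 and the acetylcholine receptor gene nAChRalpha1 4. The sodium channel gene para with 56.0 kb eligible, the calcium channel gene cac with 38.6 kb and the receptor gene nAChRalpha4 with 70.7 kb had no member. No replicate list had a peak in them under the same rule. Thresholded summits were few as well, at 19.8 per Mb of these genes. A list of neural genes is read here in whole embryos, and which cells gave a peak was not measured.

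Muscle and cytoskeleton genes held a member in 11 of 16 cases at 249 per Mb, with shot (18), a spectraplakin gene, Zasp52 (12), a Z-disc gene, Msp300 (10), a giant nuclear envelope protein gene, and rols (10), a myoblast fusion gene, ahead. Insulator and chromatin genes have little eligible sequence, 0.0473 Mb in 8 genes. They had 423 members per Mb, with 486, 402 and 381 in the replicate lists. Members were held by 4 of these genes. These were osa (9), of the SWI/SNF family remodeler, the Polycomb group genes Psc (4) and Su(z)2 (3), and trx (4). Of these 20 members 70.0% were in all 3 replicates. The plot of host genes shows the lists with their replicates.

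**Figure D4:**
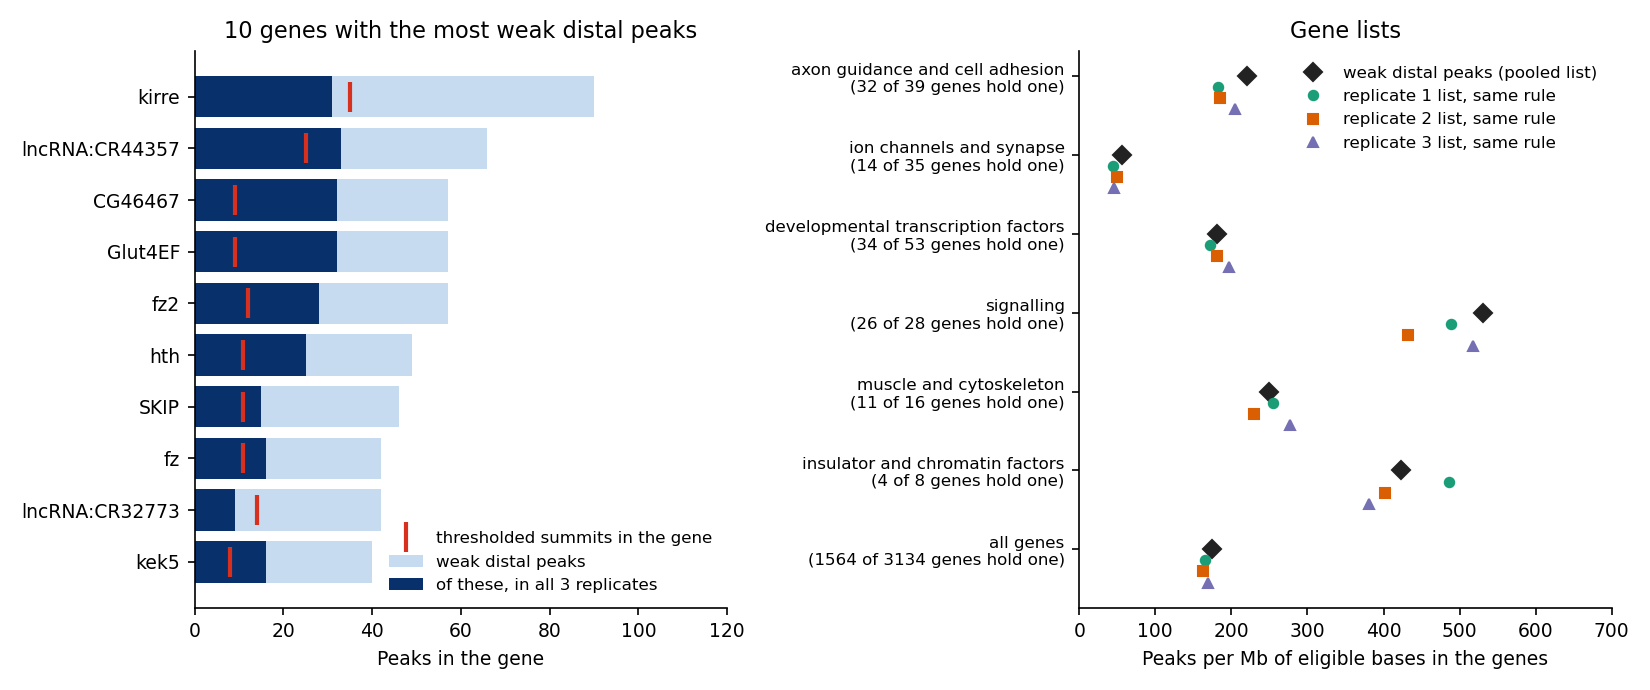
Left, the number of weak distal peaks in the 10 genes that held the most (light), those of them in all 3 replicates (dark) and the thresholded summits in the same gene (red marks); CG46467 and Glut4EF overlap and share their peaks. Right, peaks per Mb of eligible sequence in 6 gene lists and in all genes, for the pooled list and each replicate list; signalling genes lie at 530 and ion channel genes at 56.8 per Mb in the pooled list.

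Chromosome 4 had 16 hosts. The antisense RNA gene asRNA:CR43957 held 5 members, 3 of them in all 3 replicates, and zfh2, a zinc finger homeodomain gene, held 4, with 5, 4 and 6 replicate peaks. PlexA, a semaphorin receptor gene, Sox102F, Tdg and pan, the TCF factor of the Wnt pathway, held 3 each. Sox102F had none of its members in all 3 replicates although its replicate lists had 7, 8 and 6 peaks, which is more than the pooled list gave. Rnf11, asRNA:CR44030 and ci, the transcription factor of the Hedgehog pathway, held 2 each, and CG1674, Ekar, PlexB, Zyx, dati and onecut were among those with 1 each. Without strand in a peak list, a member in an antisense RNA gene cannot be told apart from one in the gene it overlaps.

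Summits of members were slightly poorer in G and C than their surroundings. The median GC content of 200 bp at the summit was 39.5%, against 41.0% in windows 1000 bp to either side and 41.0% over eligible tiles, and 55.7% of members were below their own flanks. The replicate lists had medians of 39.0%, 40.5% and 39.5%, a mean of 39.7% ± 0.764 (SD, n = 3), so the replicates spread as widely as the difference itself. Thresholded distal peaks had a median of 34.0%. In windows of 50 bp the mean of members was 38.9% at the summit and 42.0% and 42.2% at 250 bp to either side, while thresholded distal peaks went from 31.5% at the summit to 44.4% on both sides. Members in all 3 replicates reached 37.9% and those in fewer 39.6%, both shallower than the thresholded peaks. The median was 41.5% in the weakest group by signal value and 36.0% in the strongest.

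Replicate 2 stood apart in sequence rich in A and T. Where the window held under 25% GC, replicates 1 and 3 had 131 and 128 peaks per Mb under the rule and replicate 2 had 58.7. At 50% GC or more replicate 2 had 126, against 94.2 and 107 in the others. Members had 108 and 110 per Mb of eligible bases in these groups and the highest density, 172, at 30 to 35% GC. Per Mb of unique tiles they had 176 and 146 in the same groups, and again the most, 249, at 30 to 35% GC. The cause of the difference between replicates was not tested.

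**Figure D5:**
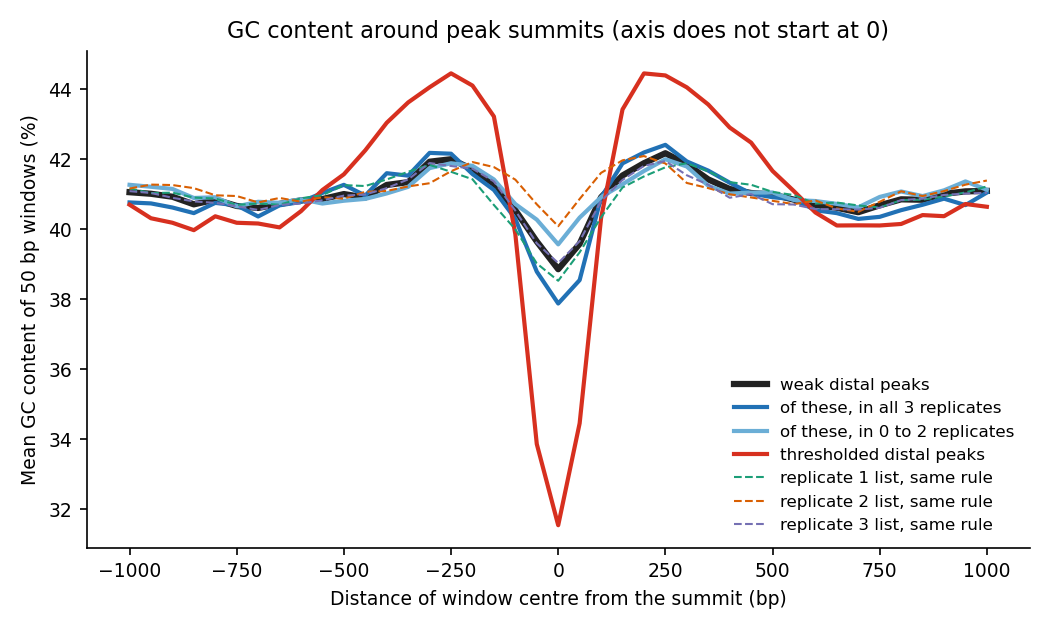
Mean GC content in percent of 50 bp windows by distance from the summit in bp, for the weak distal peaks, those in all 3 replicates, those in fewer, the thresholded distal peaks and the 3 replicate lists under the same rule (dashed). The dip at the summit reaches 38.9% for weak distal peaks and 31.5% for thresholded distal peaks.

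Elements known from other fly factors were counted within 100 bp windows at the summit, on either strand, and compared with windows 500 bp to either side. With these windows none of the 24 elements was more than 1.5 times as frequent at member summits as in the flanks. With windows of 50 bp the rare CTCF core AGGTGGCG was 2 times as frequent (0.155% against 0.0774%). In the replicate lists, with 100 bp windows, the rare Motif 1 core GGTCACAC of promoters had ratios of 1.10, 2.40 and 1.91, against 0.909 for members. The TATA box letters TATAAA, bound by the TATA-binding protein at core promoters, were in 14.5% of member summits (13.9 to 15.2) against 12.1% of flanks and 12.7% of all eligible tiles, a ratio of 1.20, with 1.19 ± 0.0959 in the replicate lists (SD, n = 3). Thresholded distal peaks had them in 24.7% against 11.4%. A run of A (AAAAAAA) was in 13.7% of summits, 11.1% of flanks and 9.78% of tiles. The letters TATTTATA of Mef2, a muscle factor, were in 2.88%, 2.10% and 2.02%, a ratio of 1.37 that was 1.15 ± 0.0758 in the replicates. CATATG, an E-box of Twist, was in 4.11%, 3.26% and 2.87%, a ratio of 1.26 with replicates from 1.04 to 1.30. TATATATA, which overlaps the A and T rich words above, was in 2.30%, 1.79% and 1.54%.

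The CTCF core was in 22 summits (0.2003%) against 0.168% of flanks and 0.156% of tiles, a ratio of 1.19 with 1.43 ± 0.231 in the replicate lists (SD, n = 3) and 0.936 with flanks at 1000 bp. GAGAGAG of the GAGA factor was in 1.45% of summits, 1.40% of flanks and 1.18% of tiles, and CAGGTAG of Zelda, a factor of early embryonic genes, in 0.410%, 0.473% and 0.437%, although its ratio was 1.14 in windows of 50 bp. AACCACA of Runt, in 1.07% against 1.53% of flanks and 1.499% of tiles, and GCCATT of the Polycomb factor Pho, in 7.11% against 8.54% and 7.85%, were less frequent, with ratios of 0.700 and 0.833 and replicate means of 0.786 ± 0.0463 and 0.876 ± 0.0101 (SD, n = 3). The rare DRE letters TATCGATA, a target of Dref and BEAF-32, were found in 16 summits (0.146%) against 0.168% of flanks and 0.213% of tiles, while the replicate lists had a ratio of 1.32 ± 0.149 (SD, n = 3) and members in 50 bp windows one of 1.43. A match is a description of letters and does not show that a factor binds there.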

How the data were processed

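The files were peak lists of 3 biological replicates, 1 list of the replicates pooled and 1 thresholded list, made by the authors. Each replicate list came from that replicate's alignments and 1 control used by all, per the file headers of the accompanying text files. Per the labels, sonication sheared the chromatin and dm6 is the assembly. Not given in the sources used here are aligner, peak caller and IDR threshold. The signal values and the -log10 q values are the authors', as deposited, and were used only to rank or describe peaks. Depth is unknown, and nothing says how far the replicates share embryos.

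From the lists, summits were placed on Release 6 with the gene models of Ensembl release 115 (arm names and lengths matched), and annotated transposable elements were not counted as genes. Overlap meant 1 bp or more. Eligible bases were enumerated base by base under the same rule, so densities need no random placement. Errors are SDs over the 3 replicate lists put under the rule and exact 95% binomial (Clopper-Pearson) intervals. Since the members were chosen on these values, no p was computed. Counting was checked on simulated peaks with known places. Python 3.11.15, NumPy 2.4.6, pandas 2.3.3 and SciPy 1.17.1 were used. Of 233 listed genes 1 was matched through an older name and 1 was not matched.

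Members, gene lists and elements were chosen with earlier results of these data known. Named genes are those near or in the 10 strongest members, the 10 hosts with the most members, up to 4 hosts per list, the 5 densest hosts with at least 10 members and the hosts on chromosome 4, of which 1 is not reported here; other names in the text were chosen after their values were seen. Alternatives were other distances (500 and 2000 bp), start sites of protein-coding genes only, the stronger part of the members, other presence rules and other windows. Each replicate was also left out of the presence rule, with the pooled and thresholded lists unchanged. Members with only unique 31-mers were added as an alternative after seeing the data.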

Additional observations from a re-analysis of the deposited data

How the results depend on the processing

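No paired analysis was possible because all samples belong to 1 group. Shares, ratios and medians that moved by more than the spread between replicates are given here with the counts of members and hosts, and the cause was not tested beyond what each setting removes. With a distance of 500 bp there were 14667 members in 2346 host genes, the intron share was 68.1% and the median distance to a start site 3328 bp. With 2000 bp there were 6792 members in 1122 host genes, 39.1% of them in all 3 replicates, with an intron share of 68.7%, an X ratio of 1.36 and a median start site distance of 5767 bp. With start sites of protein-coding genes only there were 11753 members in 1941 hosts, the intron share was 66.0% and the median distance 5350 bp. The stronger part of the members by signal value (5493, in 1314 hosts) had 66.7% in all 3 replicates, an intron share of 68.7%, a median distance of 4139 bp and a median GC of 38.0%. Each replicate was also left out in turn, with members required in the lists of both others. The pooled and thresholded lists still came from all replicates, so this setting only filters members by presence. It left 5494 to 6110 members, which is 50.01% to 55.6% of all, in 1232 to 1310 hosts. Their intron share was 68.8% to 69.7%, their X ratio 1.25 to 1.29, their median distance 3961 to 4069 bp and their median GC 38.5% to 39.0%. The stricter presence rules gave 29.2% (summit inside) and 19.9% (within 100 bp). A 400 bp window gave a median GC of 40.5%. With members of only unique 31-mers, chosen after seeing the data, there were 10717 members in 1684 hosts and the X ratio was 1.17.

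The ratio of summit to flank crossed 1 for DRE (1.43) and Zelda (1.14) in 50 bp windows, for TCF in 50 bp windows (1.02) and with flanks at 1000 bp (1.07), and with flanks at 1000 bp for the Motif 1 core (1.03), Su(H) (1.03), the CTCF core (0.936, against 2 in 50 bp windows) and Grainyhead (1.03). These elements therefore have no direction here. Other ratios moved by more than the spread between replicates but stayed on the same side of 1. In 50 bp windows they were those of Runt (0.778), Su(H) (0.829), Pho (0.822), TATAAA (1.30), the run of A (1.30) and TATATATA (1.24). With flanks at 1000 bp they were those of Pho (0.897), the Su(Hw) core (1.10), the run of A (1.21) and TATATATA (1.38). Unknown depth, capped list lengths and 1 common peak width limit how finely presence and position can be read.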

Other observations

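Of 2055 words of 6 letters found in at least 1% of the flanks, the 10 with the highest and the 10 with the lowest ratio of summit to flank were chosen on the members of 2L and 2R and then read on the 7249 members of 3L, 3R and X. AGGGTA had the highest ratio where it was chosen, 1.64, and was in 3.01% of summits against 1.99% of flanks on the other arms, a ratio of 1.51. The second, GTGCAC, went from 1.63 to 1.32. GCATAC went from 1.62 to 1.05, CTAGCA from 1.55 to 0.903 and ACGCTA from 1.55 to 0.900. Among the lowest, CACGTG went from 0.495 to 0.961 and AGGACG from 0.614 to 0.672. Most of these ratios moved toward 1 on the arms that were not used to choose them.

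Members present in 1 replicate only were rarely strong there, and 7 of them ranked among its 7287 strongest peaks. The 5 strongest by rank, named after their values were seen, lay in introns of CG34370 (rank 5963 in replicate 2), SecCl (6172 in replicate 1) and Dscam1 (6546 in replicate 3), and near Dad (6760) and lncRNA:CR45737 (7007), both in replicate 2. All 5 had unique sequence around the summit. The member in CG34370 had a pooled signal value of 201 although replicates 1 and 3 listed no peak over it.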
